A study of Mus musculus with 8 samples.

Results

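Cybb, Cyba, Ncf1, Ncf4 and Rac2, 5 of the 32285 genes counted in this series, encode parts of the NADPH oxidase of phagocytes, and the rule took them by name, without the use of any measured value. All 5 had unique molecular identifiers (UMIs, a count of captured RNA molecules) in every group. The cells were CD45+CD11b+Ly6Chi cells sorted from the blood or from the MC38 colon carcinomas of mice, where these surface proteins mark monocytic myeloid-derived suppressor cells. Tumors were left untreated (control) or were given 1 dose of 20 Gy of ionizing radiation (IR), and the cells were taken 3 days after it. Each droplet library mixed cells of WT mice (Ythdf2 fl/fl, no Cre) with cells of Ythdf2-cKO mice (Lyz Cre+;Ythdf2 fl/fl), in which Cre is driven by the Lyz2 locus of myeloid cells, and 2 hashtag antibodies marked the genotypes. The 4 libraries thus gave 8 groups, each of which was 1 pool of 5 mice. All groups carried the floxed Ythdf2 gene and all mice carried a tumor.

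The phagocyte oxidase passes electrons from NADPH across a membrane to oxygen and so makes superoxide, which phagocytes use against microbes and which monocytic suppressor cells can use against T cells. Its catalytic core in the membrane joins CYBB (gp91phox), which holds the electron path, to CYBA (p22phox), which stabilizes CYBB and also serves related oxidases. On activation the cytosolic organizer NCF1 (p47phox), the regulator NCF4 (p40phox) and the GTPase RAC2 move to this core.

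The genes lay on 4 chromosomes of the mouse genome (mm10, GENCODE vM21). Cybb (ENSMUSG00000015340) is at chrX:9435252-9487771, Cyba (ENSMUSG00000006519) at chr8:122424776-122432930 and Ncf1 (ENSMUSG00000015950) at chr5:134220053-134229625, all on the reverse strand. Ncf4 (ENSMUSG00000071715), on the forward strand at chr15:78244801-78262580, and Rac2 (ENSMUSG00000033220), on the reverse strand at chr15:78559167-78572783, share a chromosome. The 250 bases before the RefSeq start (GRCm38.p6, the same genome, reverse strand) are shown for Cybb, Cyba and Ncf1. The promoter sequences at hand held no entry for Ncf4 and Rac2. The capitals mark GGAA, the core letters bound by ETS factors such as PU.1 (Spi1), in either orientation, so that TTCC is the same letters on the other strand.
Cybb, chrX:9469325-9469574: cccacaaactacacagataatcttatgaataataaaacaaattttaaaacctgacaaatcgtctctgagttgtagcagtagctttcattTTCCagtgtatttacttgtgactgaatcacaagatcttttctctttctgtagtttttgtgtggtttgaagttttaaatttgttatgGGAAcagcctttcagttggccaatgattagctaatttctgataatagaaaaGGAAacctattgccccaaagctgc
Cyba, chr8:122432941-122433190: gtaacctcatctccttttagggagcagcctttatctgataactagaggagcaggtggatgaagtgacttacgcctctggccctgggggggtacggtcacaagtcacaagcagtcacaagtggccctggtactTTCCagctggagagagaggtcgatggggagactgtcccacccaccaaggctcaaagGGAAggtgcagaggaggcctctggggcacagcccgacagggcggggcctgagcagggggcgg
Ncf1, chr5:134229626-134229875: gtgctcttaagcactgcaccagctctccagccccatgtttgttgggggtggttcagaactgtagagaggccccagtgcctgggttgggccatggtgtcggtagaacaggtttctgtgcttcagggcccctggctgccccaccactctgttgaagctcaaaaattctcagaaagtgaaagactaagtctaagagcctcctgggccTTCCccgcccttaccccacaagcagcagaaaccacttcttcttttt
Cybb held 3 such sites, Cyba held 2 and Ncf1 held 1, and 93.4% of 32851 RefSeq promoters of this length held at least 1. The letters CCAAT, searched on both strands, were found once, in Cybb, from 56 to 52 bases before the start, and 33.8% of all promoters held them. The longer GAGGAA, which contains GGAA, was in 23.3% of all promoters and in none of these 3. The Cybb window lies inside the GENCODE span of the gene, which reaches farther upstream.

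After filtering 27059 cells were kept, from 2143 to 4530 per group, and the groups held 18777897 to 24780696 gene UMIs. The median kept cell held 3021.5 and 3076 UMIs in the blood libraries (control, IR) and 7296.5 and 6074 in those of tumor. Of the kept tumor control barcodes, 96.7% also held at least 500 UMIs in the tumor IR matrix, at a nearly fixed share of their own UMIs (median 0.455, 5th to 95th percentile 0.431 to 0.472), and 97.2% of the kept tumor IR barcodes did so in the tumor control matrix (median 0.59). Those barcodes had a median of 827 and 966 hashtag UMIs in their own matrix and 0 in the other. The treatment of a tumor cell was taken from the matrix that held its hashtag UMIs, and tumor values of IR are given below also with both treatments read from 1 matrix. Of the kept blood control and blood IR barcodes, 20 and 21 held at least 500 UMIs in the other blood matrix, without this pattern. They had medians of 1301.5 and 785 hashtag UMIs there. Their share of UMIs was not fixed (5th to 95th percentile 0.536 to 9.60 and 0.104 to 1.80). The WT label of tumor control was the weakest, since 999 of its 2515 cells had at least 4 times as many WT as cKO hashtag UMIs. The genotype labels were checked on Lyz2, with log2 ratios of −7.42 to −5.81 in the cells labelled cKO over those labelled WT, and on Ythdf2, whose UMIs went against the label, with log2 ratios of 2.72 to 3.26. Where the 3′ tags of Ythdf2 lie relative to the deleted part was not determined, and tags outside that part would check nothing about it. The difference between Ythdf2 and the label was not resolved, so WT and cKO stand for hashtag labels throughout. Fibroblast-like cells, led by collagen genes and far from the sort (Ptprc, which encodes CD45, was at 2.87 to 16.0 CPM in the 3 groups with at least 50 of them), gave 16.7% and 30.7% of the gene UMIs of tumor control WT and cKO but 9.56% and 5.22% of those of tumor IR WT and cKO. Many tumor ratios of the 5 members are therefore given also without them. The levels of whole groups and the pathway lists below include them.

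Levels are CPM, the UMIs of a gene scaled to the gene UMIs of the group, and all intervals (95%) cover the error of counting alone. Each group was 1 pool, so groups were compared without a test and no spread between mice is known. Differences are log2 ratios of CPM with 1 UMI added, where 1 means 2-fold, and the share of all genes with at least 100 UMIs that passed 2-fold in the same comparison is given as a background. Capture differs between genes, so the levels of different members are not ranked against each other.

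Cybb was higher in the 4 blood groups than in the 4 tumor groups. In blood it stood at 727 CPM (716 to 739) in control WT, 843 in control cKO, 746 in IR WT and 803 in IR cKO. In tumor it stood at 451 CPM (442 to 461) in control WT, 385 in control cKO, 508 in IR WT and 515 in IR cKO. Its levels in the groups did not overlap between blood and tumor, and the lowest of the 8 was tumor control cKO. As a mean over cells of each cell's CPM, Cybb was instead higher in tumor (log2 ratios of 0.06 to 0.58). Cyba overlapped between the tissues. It stood at 1727, 1871, 2026 and 2065 CPM in blood control WT, control cKO, IR WT and IR cKO, and at 1802, 1457, 2137 and 2183 CPM in the same order in tumor. For this subunit the 4 irradiated groups were the 4 highest.

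Ncf1, the organizer, was at 210, 247, 218 and 199 CPM in the blood groups, again in the order control WT, control cKO, IR WT and IR cKO. In tumor it was at 99.5, 112, 138 and 137 CPM. Every blood level lay above every tumor level. The share of all genes that separated the blood from the tumor groups in this way, as Cybb did too, was not counted. Between the tissues 32.1% to 43.8% of all genes passed 2-fold in the comparisons below. Ncf4 was at 213, 259, 255 and 265 CPM in blood and at 159, 127, 185 and 192 CPM in tumor, which did not overlap either. Rac2, the GTPase of blood cells, was farthest apart, at 771, 749, 816 and 804 CPM in blood against 191, 134, 222 and 216 CPM in tumor. The intervals of blood IR WT (804 to 828) and blood IR cKO (791 to 817) of Rac2 overlapped, as did those of tumor IR WT (216 to 229) and tumor IR cKO (210 to 222).

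**Figure D1:**
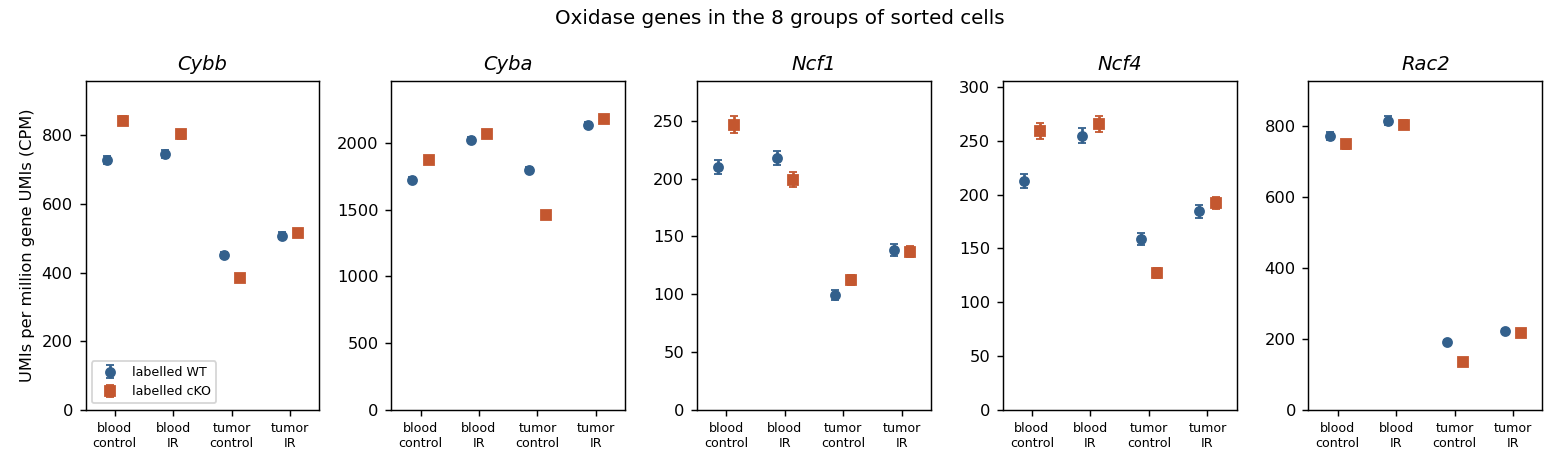
CPM of Cybb, Cyba, Ncf1, Ncf4 and Rac2 (1 panel each, axis from 0) in the 8 groups. Circles are cells labelled WT, squares are cells labelled cKO, and bars are 95% Poisson intervals for counting error. Rac2 lies between 749 and 816 CPM in blood and between 134 and 222 CPM in tumor, whereas Cyba overlaps between the tissues.

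Classes of cells, named from marker genes without use of the 5 members, differed far more in Cybb than the groups did. In blood, classical monocyte-like cells (cluster 3, led by genes such as F13a1 and Chil3) held 1170 to 1325 CPM of Cybb over the 4 groups, and nonclassical monocyte-like cells (cluster 5, led by Ace and Treml4) held 1311 to 1388. Neutrophil-like cells of the same libraries held 69.1 CPM in control WT, 190 in control cKO, 85.1 in IR WT and 76.8 in IR cKO. Against the classical monocyte-like cells these were log2 ratios of −4.26 (−4.39 to −4.14), −2.72, −3.78 and −3.96 in the same order. In the 4 comparisons 56.8%, 56.6%, 59.2% and 59.5% of all genes passed 2-fold in either direction, so a 2-fold gap between these classes was common.

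Depth differed between these classes, with medians of 10260 to 13188 UMIs in classical monocyte-like and 2530 to 2693.5 in neutrophil-like cells. A Cybb UMI was found in 99.8% to 100% of the former and in 10.7% to 18.2% of the latter. With every cell thinned to 1000 UMIs the shares were 67.8% to 72.1% and 4.52% to 8.34%. NK cell-like cells, which are not phagocytes and had medians of 3138.5 to 3496.5 UMIs in blood, gave the background. In blood control WT, 0 of 202 held Cybb, which allows a share of up to 1.49% (3 of 202), and over all groups the share in NK cell-like cells was 0% to 3.85%. The level of Cybb in NK cell-like cells was 0 to 13.6 CPM, although free RNA in the blood matrices held 612 and 568 CPM of Cybb. The share in neutrophil-like cells thus lay above this background, at a low level.

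Cyba varied less than Cybb between the named classes of blood leukocytes, though by more than 2-fold from the lowest to the highest value. It stood at 2101 to 2525 CPM in blood classical monocyte-like cells, at 1928 to 2120 in nonclassical monocyte-like cells, at 1475 to 1630 in neutrophil-like cells and at 1088 to 1421 in NK cell-like cells of both tissues. Against classical monocyte-like cells its log2 ratio in neutrophil-like cells was −0.51 to −0.68, under the 2-fold limit in all 4 blood groups. In fibroblast-like cells it was at 274 to 361 CPM, whereas Cybb, Ncf1, Ncf4 and Rac2 were at 0.684 to 11.9 CPM there.

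Of the cytosolic members, Ncf1 went the other way from Cybb. Ncf1 was higher in neutrophil-like cells (331 to 430 CPM) than in classical (136 to 155) or nonclassical monocyte-like cells (106 to 137), with log2 ratios of 1.30 (1.19 to 1.41), 1.59, 1.14 and 1.28 against the classical class in blood control WT, control cKO, IR WT and IR cKO. In NK cell-like cells it was at 2.52 to 23.2 CPM. Ncf4 differed little between the myeloid classes of blood. It stood at 216 to 285 CPM in neutrophil-like, 241 to 302.2 in blood classical monocyte-like and 230 to 253 in nonclassical monocyte-like cells, with log2 ratios of −0.15, 0.00 (−0.10 to 0.10), −0.31 and −0.32 between the first and the second of these classes. NK cell-like cells held 58.3 to 127 CPM of Ncf4.

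Rac2 was higher in neutrophil-like and NK cell-like cells than in monocyte-like cells. It stood at 1237 to 1420 CPM in neutrophil-like cells and at 717 to 1203 in NK cell-like cells, against 431 to 471 CPM in blood classical and 387 to 456 in nonclassical monocyte-like cells. The log2 ratio of neutrophil-like to classical monocyte-like cells was 1.46 (1.40 to 1.53), 1.56, 1.57 and 1.59. Thus 3 of the 5 members (Cybb, Ncf1 and Rac2) passed 2-fold between these classes in each of the 4 blood groups, 1 lower and 2 higher in neutrophil-like cells, beside the shares of all genes given above.

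**Figure D2:**
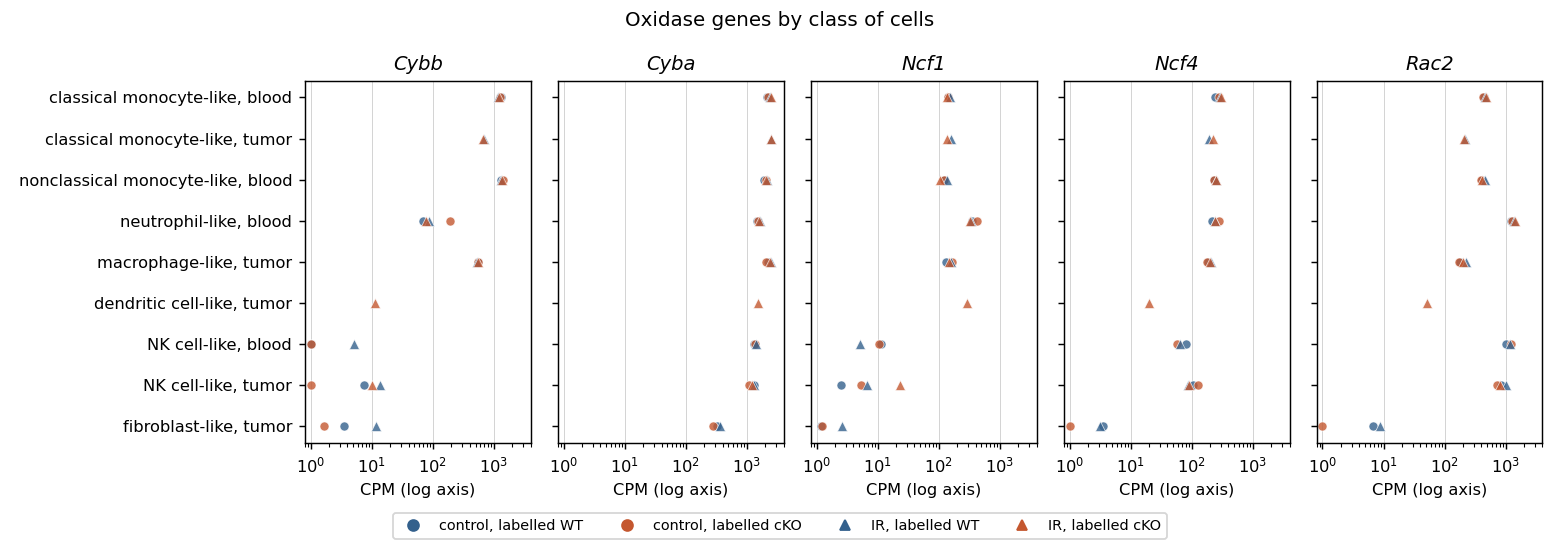
CPM of the 5 members (log axis) in the named classes of cells with at least 50 cells, by tissue. Each point is 1 group; circles are control, triangles are IR, blue is labelled WT, orange is labelled cKO, and a value of 0 is drawn at 1. Cybb is high in monocyte-like cells and low in neutrophil-like cells, Ncf1 and Rac2 are higher in neutrophil-like than in monocyte-like cells, and in fibroblast-like cells the 4 members other than Cyba lie at or below 11.9 CPM.

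Tumor macrophage-like cells, which joined 4 clusters with C1q, Mrc1 or Arg1 among their markers, held intermediate Cybb. It stood at 549 CPM in control WT, 541 in control cKO, 533 in IR WT and 540 in IR cKO, and the intervals of these values overlapped (535 to 563 for control WT, 517 to 549 for IR WT). Rac2 was at 171 to 224 CPM, Ncf1 at 133 to 163, Ncf4 at 179 to 204 and Cyba at 2029 to 2526 CPM. Tumor cells called classical monocyte-like came mostly from another cluster than those of blood (cluster 7, led by interferon-induced genes such as Ifit2 and Rsad2) and reached 50 cells only after IR. Their Cybb was 679 CPM in WT and 665 in cKO. Compared with the blood class after IR, these cells had less Rac2 (log2 ratio −1.09 in WT and −1.18 in cKO), less Cybb (−0.79 and −0.85) and less Ncf4 (−0.59 and −0.44), while Ncf1 (0.01, −0.13 to 0.15, and 0.00) and Cyba (0.05 and −0.04) were near 0. Rac2 was the 1 member of 5 past 2-fold, in a comparison where 43.0% of all genes in WT and 42.0% in cKO passed, and at 2 other clustering resolutions no tumor class of this name was left.

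Tumor dendritic cell-like cells (cluster 19, led by Ccl22, Ccr7 and Fscn1) stood apart from the other myeloid classes. In the 74 such cells of tumor IR cKO, the 1 group with at least 50, Ncf1 was at 290 CPM (242 to 345) and Cyba at 1529, but Cybb was at 11.2 CPM (3.65 to 26.2), Ncf4 at 20.2 and Rac2 at 51.7. Over both treatments and labels, 147 cells of this class gave 10.6 CPM of Cybb and 291 CPM of Ncf1. A Cybb UMI was found in 4.76% of them, near the share of tumor NK cell-like cells (2.07%), at medians of 6451 and 2484 UMIs, and thinned to 1000 UMIs the shares were 1.78% and 0.911%.

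Clusters without a name differed as much. Cluster 12, tumor cells led by Ccl3, G0s2 and Acod1 with 2 neutrophil markers raised, held 71.0 CPM of Cybb, 210 of Ncf1 and 831 of Cyba. Cluster 15, led by Ccl17 and Cd209a, held 214 CPM of Cybb. Cluster 4, led by Adora2b and Cxcl10, held 713 CPM of Cybb and 259 of Rac2. Cluster 8, which had a median of 1428.5 UMIs per cell and was led by Gm26917 and Gm42418, held 813 CPM of Cybb but 1199 of Cyba in its tumor cells.

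Within single cells the members were found together most often in monocyte-like cells of blood. All 5 had a UMI in 64.7% to 77.9% of blood classical and 47.1% to 62.1% of nonclassical monocyte-like cells, in 29.3% to 42.4% of macrophage-like cells, in 26.6% and 26.9% of tumor classical monocyte-like cells (IR WT, IR cKO) and in 2.78% to 9.73% of neutrophil-like cells. In NK cell-like cells it was 0 of 202 in blood control WT, which allows up to 1.49%, and 0 in each of the other 6 groups with at least 50. Depth moved with this order. Thinned to 1000 UMIs, a cell was expected to show 2.28 to 2.35 of the 5 members in blood classical monocyte-like, 1.82 and 1.85 in tumor classical monocyte-like, 1.95 to 2.09 in neutrophil-like, 1.64 to 1.74 in macrophage-like and 1.29 to 1.51 in NK cell-like cells. The makeup of the members' UMIs also set the classes apart. Cybb gave 25.8% to 31.2% of them in blood classical monocyte-like cells, 14.6% to 17.6% in macrophage-like and 2.07% to 5.13% in neutrophil-like cells, and Rac2 gave 9.89% to 10.5%, 5.41% to 6.15% and 34.2% to 38.9% in the same classes.

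Between tumor and blood the members were mostly lower in tumor. In control WT, the log2 ratios were −0.69 for Cybb, 0.06 for Cyba, −1.07 for Ncf1, −0.42 for Ncf4 and −2.02 (−2.07 to −1.97) for Rac2, and 2 of the 5 passed 2-fold beside 35.5% of all genes. In control cKO they were −1.13, −0.36, −1.13, −1.03 and −2.48, and 4 of the 5 passed beside 43.8%. After IR they were −0.56, 0.08, −0.65, −0.47 and −1.88 in WT and −0.64, 0.08, −0.54, −0.47 and −1.90 in cKO, with Rac2 alone past 2-fold beside 32.1% of all genes in each label. Rac2 was thus more than 3-fold lower in tumor in all 4 comparisons. The tissues differed in their cells, with 65.9% to 70.1% neutrophil-like cells in the blood groups and 0.0531% to 0.225% in the tumor groups, and the median of the members (−0.69, −1.13, −0.56 and −0.54) compares with medians over all genes of 0.11, 0.23, −0.08 and −0.10. The sign for Cybb depended on the weight of the cells. As a mean over cells of each cell's CPM, so that small neutrophil-like cells count as much as monocyte-like cells, Cybb was higher in tumor (0.58, 0.06, 0.53 and 0.42). Without fibroblast-like cells the control cKO ratios became −0.60 for Cybb, 0.08 for Cyba, −0.61 for Ncf1, −0.50 for Ncf4 and −1.95 for Rac2. Ratios in control WT moved as well without them, with Cyba at 0.28 and Ncf4 at −0.16.

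After IR, all 5 members were higher in tumor in both labels. Cells labelled WT gave log2 ratios of 0.17 (0.13 to 0.21) for Cybb, 0.25 for Cyba, 0.48 (0.39 to 0.56) for Ncf1, 0.22 for Ncf4 and 0.22 for Rac2. Cells labelled cKO gave 0.42 (0.38 to 0.46), 0.58, 0.28, 0.60 and 0.68 (0.62 to 0.75). None passed 2-fold, against 5.99% of all genes in WT and 22.3% in cKO, whose medians were −0.13 and −0.18. Of these genes, 35.1% in WT and 39.0% in cKO were higher by any amount. Trimmed-mean (TMM) scaling added 0.14 in WT and 0.20 in cKO to every gene and left all 5 members higher. The size of the Ncf1 ratio in WT depended on the hashtag rule. It was 0.18 when WT cells needed a 4-fold margin of WT over cKO hashtag UMIs.

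These differences became smaller or changed sign when fibroblast-like cells were left out. Inside the macrophage-like class, however, Rac2 in WT was larger (0.34 against 0.22 over all kept cells). Other classes also differed in share. Classical monocyte-like cells made up 1.59% of control WT and 19.5% of IR WT, and 0.793% and 17.4% in cKO. Cluster 12 made up 0.557% and 10.4% in WT and 1.31% and 6.50% in cKO. Without the fibroblast-like cells the ratios in WT were 0.05 for Cybb, 0.15 for Cyba, 0.36 for Ncf1, 0.10 for Ncf4 and 0.11 for Rac2. In cKO they were −0.03, 0.21, −0.17, 0.15 and 0.23, so that 3 of 5 members were higher. Cyba, Ncf4 and Rac2 were higher after IR in both labels with or without these cells, and Cybb and Ncf1 were not in cKO. The part of the fibroblast-like cells in the difference was not tested. Inside the macrophage-like class as a whole Cybb stood at −0.04 after IR in WT, with an interval of −0.10 to 0.01, and at −0.00 in cKO, with one of −0.05 to 0.05. Different clusters held the class in the treatments, since cluster 6 had 242 of 1187 cells in control WT and 439 of 1059 in IR WT, and 102 of 1190 and 702 of 1612 in cKO. Within cluster 2 Cybb was lower after IR, at 585 CPM (567 to 604) in control WT against 529 (508 to 550) in IR WT, and at 575 (557 to 594) against 526 (509 to 543) in cKO. Within cluster 6 it was at 542 and 558 CPM in WT and at 585 and 570 in cKO. In cluster 11 it was at 458 and 354 CPM in WT and at 533 and 435 in cKO. Over the whole class Cyba was 0.19 and 0.25, Rac2 0.34 (0.25 to 0.44) and 0.24, and Ncf4 0.12 and 0.18. Ncf1 was 0.25 in WT (0.13 with the 4-fold hashtag margin) and −0.13 in cKO. None of the 5 passed 2-fold in these cells, of which 3.57% of all genes in WT and 9.52% in cKO did.

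With both treatments read from 1 matrix the direction was the same for all 5 members in both labels. These readings use the same barcodes with the same treatment labels, at a nearly fixed share of their UMIs. Like ratios had to follow, so the readings remove a difference between matrices only. They cannot check which treatment a cell had. From the tumor control matrix the WT ratios were 0.15 for Cybb, 0.24 for Cyba, 0.44 for Ncf1, 0.25 for Ncf4 and 0.19 for Rac2, and the cKO ratios were 0.44, 0.59, 0.33, 0.55 and 0.70. From the tumor IR matrix they were 0.22, 0.16, 0.38, 0.18 and 0.23 in WT and 0.44, 0.50, 0.31, 0.53 and 0.63 in cKO. When barcodes called in more than 1 library were removed, 85 to 170 cells were left in each tumor group, and 3 of the 5 members were higher in each label. Cybb was then lower (−0.47 in WT and −0.41 in cKO), as were Rac2 in WT (−0.14) and Ncf4 in cKO (−0.12). As a mean over cells of each cell's CPM, Cybb was at −0.10 in WT and 0.05 in cKO.

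**Figure D3:**
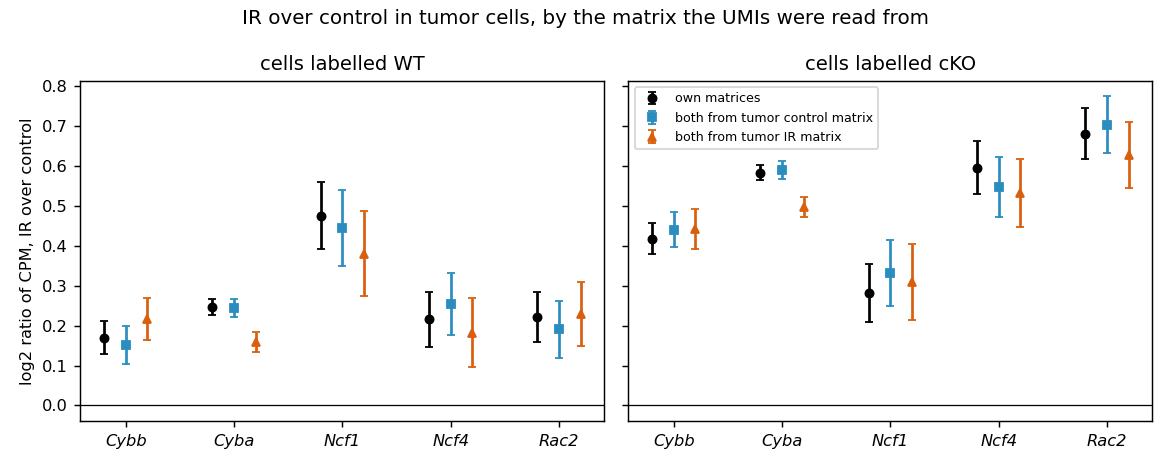
Log2 ratios of CPM, IR over control, of the 5 members in tumor cells labelled WT (left) and cKO (right). Black circles are the values with each treatment read from its own matrix, squares and triangles those with both treatments read from the tumor control or the tumor IR matrix, and bars are 95% intervals for counting error. Every value lies above 0, and squares and triangles re-read barcodes held by both matrices under the same treatment labels.

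In blood, the differences after IR were small. In WT they were 0.04 for Cybb, 0.23 (0.21 to 0.25) for Cyba, 0.05 for Ncf1, 0.26 (0.21 to 0.32) for Ncf4 and 0.08 for Rac2, and in cKO −0.07, 0.14, −0.31 (−0.37 to −0.25), 0.03 and 0.10. None of the 5 passed 2-fold in either label, beside 1.31% and 1.38% of all genes. In classical monocyte-like cells Cybb was lower after IR (−0.18 in WT, −0.07 in cKO) and Cyba higher (0.21 and 0.17), and 0 of 5 members passed beside 0.783% and 0.914% of all genes. In nonclassical monocyte-like cells the 10 ratios lay between −0.20 and 0.16, with 0 past 2-fold beside 0.487% and 0.72%.

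Cells labelled cKO were compared with cells labelled WT of the same library. In tumor control, Rac2 (−0.50, −0.57 to −0.44), Ncf4 (−0.32), Cyba (−0.31) and Cybb (−0.23) were lower in cKO and Ncf1 was higher (0.18, 0.09 to 0.26). None passed 2-fold, beside 4.82% of all genes. Without fibroblast-like cells, which gave more of the cKO UMIs, the ratios were −0.23, −0.06, −0.08, 0.04 and 0.44 in the same order, and with a 4-fold margin asked of the WT hashtag too, Ncf1 was −0.16. In macrophage-like cells Ncf1 was 0.29 (0.19 to 0.39) and Cybb −0.02 (−0.07 to 0.03), with 0 of 5 past 2-fold beside 2.48% of all genes. The direction of Ncf1 in whole tumor control thus depended on the hashtag rule.

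After IR the labels were close together in tumor. The ratios were 0.02 (−0.02 to 0.06) for Cybb, 0.03 for Cyba, −0.02 for Ncf1, 0.06 for Ncf4 and −0.04 for Rac2, and 0 passed beside 1.16% of all genes. Inside macrophage-like cells they ran from −0.15 for Rac2 to 0.02 for Cybb, with 0 past beside 0.292%, and inside classical monocyte-like cells from −0.19 for Ncf1 to 0.18 for Ncf4, with 0 past beside 0.225%.

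In blood control, Ncf4 (0.29, 0.23 to 0.34), Ncf1 (0.23), Cybb (0.21) and Cyba (0.12) were higher in cKO and Rac2 was at −0.04, with 0 past 2-fold beside 2.21% of all genes. In blood IR the ratios were 0.06, −0.13, 0.11, 0.03 and −0.02 in the same order, with 0 past beside 0.676%. By class the members differed. In classical monocyte-like cells of blood control Ncf4 was 0.24, Cyba 0.10 and Cybb −0.08, with 0 past beside 0.546% of all genes, and in blood IR Ncf1 was −0.18 and the other members between 0.02 and 0.05, with 0 past beside 0.298%. In nonclassical monocyte-like cells the ratios lay between −0.10 and 0.12 in control and between −0.36, for Ncf1, and 0.03 after IR, with 0 past beside 0.478% and 0.602%.

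**Figure D4:**
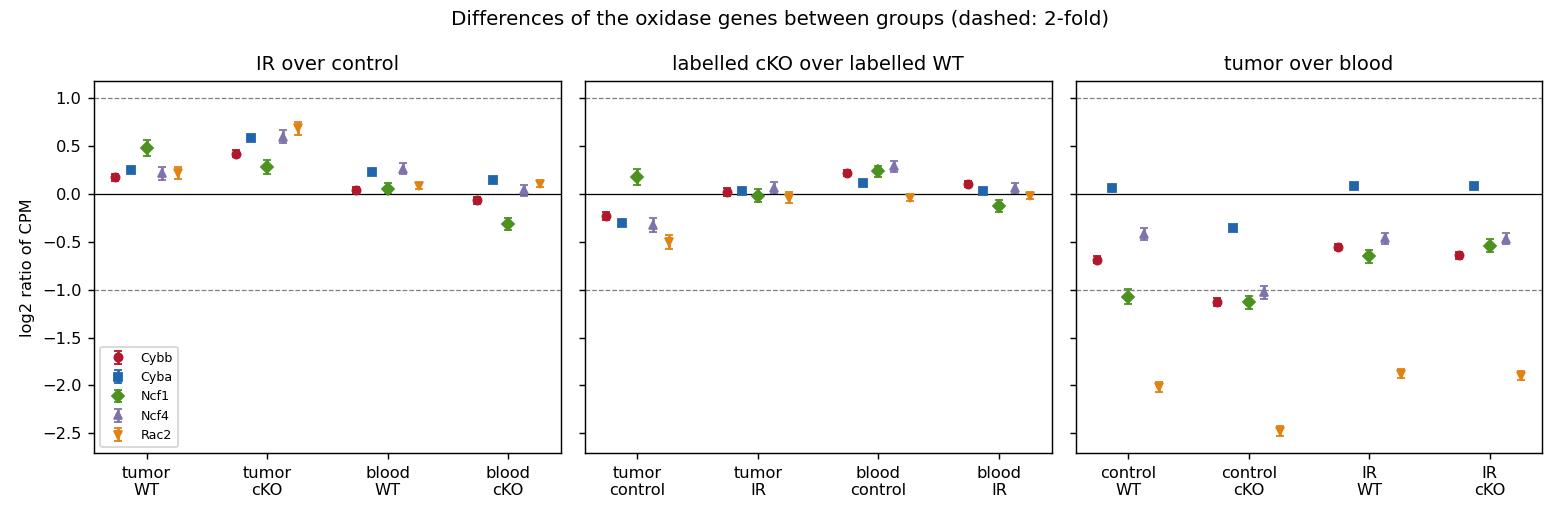
Log2 ratios of CPM of the 5 members over all kept cells, for IR over control (left), cells labelled cKO over cells labelled WT (middle) and tumor over blood (right). Bars are 95% intervals for counting error and dashed lines mark 2-fold. All IR and label ratios lie between −0.50 and 0.68, and Rac2 in tumor over blood lies between −2.48 and −1.88.

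In the named classes, a member passed 2-fold between labels or treatments with at least 100 UMIs only for Cybb in neutrophil-like cells, in a pair of comparisons that share the blood control cKO group. Cybb was at 190 CPM (181 to 201) in blood control cKO, against 69.1 (63.5 to 75.0) in control WT, 85.1 in IR WT and 76.8 in IR cKO. The log2 ratio was 1.46 (1.32 to 1.60) for cKO over WT in control, where 3.75% of all genes passed 2-fold, and −1.31 (−1.46 to −1.16) for IR over control in cKO, where 2.34% did. The other 2 comparisons gave 0.30 for IR over control in WT and −0.15 for cKO over WT after IR, with 0 of 5 members past 2-fold beside 0.77% and 0.495% of all genes. Ncf4 (0.40 and −0.24) and Ncf1 (0.32 and −0.38) had the same signs as Cybb in the first pair of comparisons, at smaller size, while Rac2 was 0.04 and 0.16.

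The clusters that made up this class differed in Cybb more than the groups. Cluster 20, led by genes of neutrophil granule proteins such as Ngp, Ltf and Camp, held 1495 CPM of Cybb (1390 to 1607) in the 62 cells of blood control cKO. In the 11, 15 and 5 cells of control WT, IR WT and IR cKO it held 1696 (1432 to 1995), 1451 and 1975 CPM. Cluster 13, led by Retnlg, Ngp and Ly6g, held 221 CPM in the 434 cells of control cKO and 197 to 319 CPM in the 26 to 41 cells of the other groups. Clusters 1, 0 and 9, led by Stfa2l1, Csf3r and interferon-induced genes, held 60.8 to 77.0, 32.7 to 44.3 and 39.4 to 50.02 CPM. Ncf1 was also highest in cluster 20 and next in cluster 13, with 588 to 834 CPM in cluster 20, 442 to 514 in cluster 13 and 272 to 378 in the other 3, whereas Rac2 was at 1105 to 1521 CPM in all 5 clusters. In blood control cKO, clusters 13 and 20 held 17.7% and 2.53% of the neutrophil-like cells, against 0.894% and 0.364% in control WT, 0.937% and 0.54% in IR WT and 1.77% and 0.216% in IR cKO. Without them Cybb was at 47.9, 50.9, 53.7 and 52.2 CPM in control WT, control cKO, IR WT and IR cKO, and its ratios became 0.09 (cKO over WT, control) and 0.04 (IR over control, cKO). Ncf4 then stood at 0.29 (0.18 to 0.39) and −0.14 (−0.24 to −0.03), and Ncf1 at 0.09 (0.003 to 0.18) and −0.15 (−0.24 to −0.06), so the intervals of both still left out 0.

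**Figure D5:**
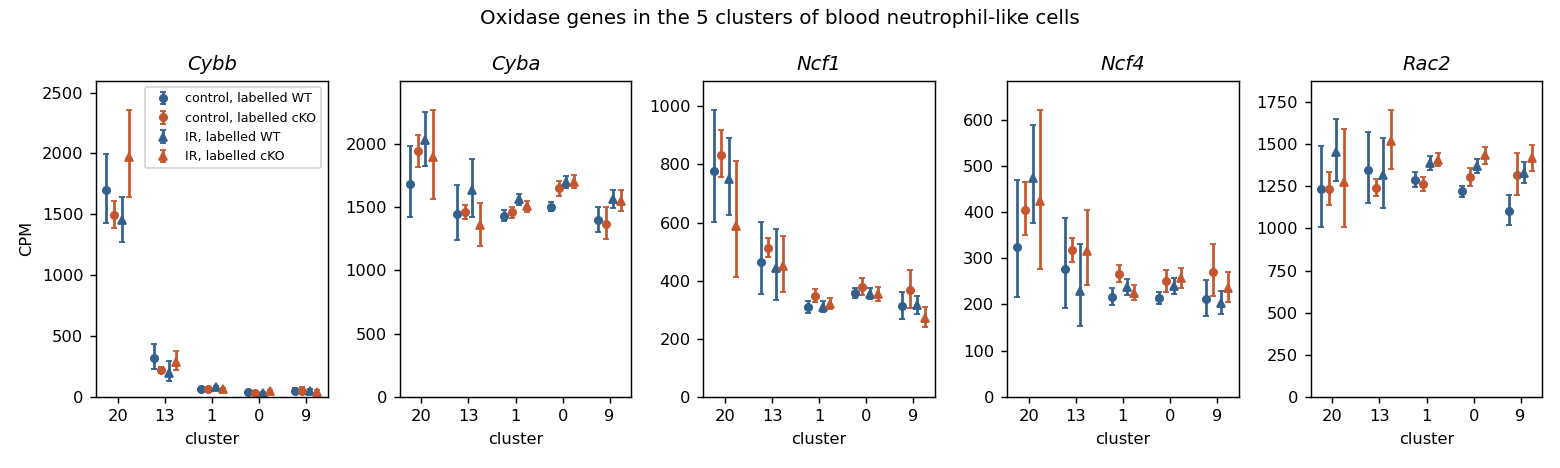
CPM of the 5 members (1 panel each, axes from 0) in the 5 clusters of blood neutrophil-like cells, by group. Circles are control, triangles are IR, blue is labelled WT, orange is labelled cKO, and bars are 95% Poisson intervals. Cybb is at 1451 to 1975 CPM in cluster 20 and at 32.7 to 77.0 CPM in clusters 1, 0 and 9, and Rac2 lies between 1105 and 1521 CPM in every cluster.

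Outside the named classes, Ncf1 in cluster 8 was at 345 CPM (136 UMIs) in tumor control cKO against 170 (92 UMIs) in tumor control WT. The log2 ratio was 1.01 (0.63 to 1.42), in a comparison where 7.70% of all genes passed 2-fold. Cells of this cluster were shallow, and the WT label of tumor control was the weakest.

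The genes whose pattern was most like each member were sought among 7756 genes over 29 class by group units, which share libraries and pools. With log2 CPM (10 added) the highest Pearson correlations were with BC028528 (0.972), Lmo2 (0.971) and Cd68 (0.971) for Cybb, with Ucp2 (0.967), Ubl3 (0.949) and Actr2 (0.941) for Cyba, with Mcemp1 (0.962), Pira2 (0.955) and Pirb (0.948) for Ncf1, with Emb (0.943), Cotl1 (0.94) and Fam49b (0.937) for Ncf4, and with Ptprc (0.974), Celf2 (0.961) and Psenen (0.944) for Rac2. No member was among the 3 genes nearest to another member. The nearest pair of members was Cyba and Ncf4 (0.901), and the farthest was Cybb and Rac2 (0.09). These are descriptions of likeness across the units and say nothing of shared control.

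Of 12 other subunits and regulators of the oxidase, all had at least 100 UMIs in every comparison. None passed 2-fold in any of the 8 comparisons of IR or of label, in which their median log2 ratio was highest for IR in tumor cKO (0.49, with a median of −0.18 over all genes) and lowest for cKO over WT in tumor control (−0.29, with 0.11 over all genes). Between tumor and blood, 4 were lower in control WT, 6 in control cKO, 4 in IR WT and 4 in IR cKO, and 1 was higher each time, beside 35.5%, 43.8%, 32.1% and 32.1% of all genes past 2-fold in either direction, with medians of −0.62, −1.12, −0.57 and −0.62. Dock2 (−1.03 to −1.74) and Prex1 (−1.25 to −1.81), which encode activators of RAC proteins, and Arhgdib (−1.001 to −1.46), which encodes an inhibitor of GTPase cycling, were among those lower in tumor. Hvcn1, which encodes the proton channel that balances the charge moved by the oxidase, was the gene that was higher in tumor (1.38 to 2.58), at 2.93 to 17.8 CPM. Rac1, the relative of Rac2 found in most tissues, was at −0.05 to −0.11.

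Of 7 genes for other NADPH oxidases and their organizers (Nox1, Nox3, Nox4, Duox1, Duox2, Noxo1 and Noxa1), none reached 100 UMIs in a comparison, and the highest level was 0.672 CPM. Among 7 enzymes that use or remove superoxide and peroxide, 1 was higher past 2-fold after IR in tumor in each label and none was lower, beside 5.99% of all genes in WT and 22.3% in cKO past 2-fold in either direction. Nos2, the one that was higher, which makes nitric oxide, was at 66.1 to 342 CPM in tumor and at 0 to 0.158 CPM in blood (1.02 in WT and 2.37 in cKO for IR over control in tumor). Sod2, the mitochondrial superoxide dismutase, was higher in tumor than in blood (2.02 to 2.53), as was Prdx1 (1.08 to 1.21), while the peroxidase Gpx1 was lower (−1.03 to −1.38). Mpo, a granule enzyme of neutrophil precursors, had 4, 91, 136 and 9 UMIs in blood control WT, control cKO, IR WT and IR cKO. Of 6 transcription factors known at the Cybb promoter, Spi1, which encodes PU.1, was lower in tumor than in blood (−1.19 to −1.999). By class its order was not that of Cybb, since in blood control WT it stood at 1050 CPM in neutrophil-like, 761 in nonclassical and 567 in classical monocyte-like cells. After IR in tumor cKO, 1 of the 6 was higher past 2-fold and 1, Hoxa10, was lower (−2.57, from 4.75 to 0.767 CPM). In that comparison 22.3% of all genes passed 2-fold in either direction. In tumor WT none of the factors passed, beside 5.99% of all genes. For cKO over WT in tumor control 1 factor was higher, beside 4.82%. Fibroblast-like cells, with 30.7% of the UMIs of tumor control cKO and 5.22% of those of tumor IR cKO, are included.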

How the data were processed

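The deposited files are droplet matrices of raw UMI counts per gene and barcode, made by the authors with Cell Ranger (6.0.1 per the submitters' notes, 4 in the file header) on mm10. The authors' own filtered cells and cell types were not used here. Barcodes were called as cells by an order-of-magnitude threshold (8000 expected cells) and an ambient test (at least 500 UMIs, Benjamini-Hochberg level 0.01), and kept with at least 200 genes, at most 25% mitochondrial UMIs and at least 20 hashtag UMIs. Cells were labelled WT where the WT hashtag had at least as many UMIs as the other, and cKO where the cKO hashtag had at least 4 times as many. The top 6% of Scrublet scores were removed as doublets.

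Cells were clustered with Seurat 5.3.0 in R 4.3.3 (2000 variable genes selected and 1997 used after removal of the 5 members, Ythdf2, Lyz1 and Lyz2, 40 components, resolution 0.8) and named where at least 3 markers of a class were raised (25% of cells, 2-fold). UMIs were summed per group and class, with Python 3.11.15, numpy 2.4.6, scipy 1.17.1, pandas 2.3.3 and scanpy 1.11.5, and classes with fewer than 50 cells in a group were left out, except for the single clusters of neutrophil-like cells. Levels have exact Poisson, shares Clopper-Pearson and ratios exact binomial intervals, and the limit for a count of 0 takes 3 counts. TMM factors came from edgeR 4.0.16. Each group was 1 pool of 5 mice, so no p-value was computed. The ratios and their intervals were tested on simulated data.

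The named genes are the 5 members, the 3 genes most like each, the label and sort genes and, of the pathway lists, those past 2-fold with at least 100 UMIs in at least 2 comparisons. Gene names other than these, and the alternatives that read both treatments from 1 tumor matrix or leave out fibroblast-like cells or neutrophil-like clusters, were added after the data were seen. The members and all lists were chosen with earlier results of these data known. Some genes of the pathway lists are not reported here by name.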

Additional observations from a re-analysis of the deposited data

Results flagged for a closer look

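Some ratios of a member had opposite signs in 2 settings, with intervals for counting error that left out 0 on both sides. None of these differences was tested, since each group was 1 pool. For cells labelled cKO over cells labelled WT, Cybb was −0.23 in tumor control and 0.21 in blood control on the log2 scale, a difference of −0.44. Cyba was −0.31 and 0.12 (difference −0.42) and Ncf4 −0.32 and 0.29 (difference −0.61) in the same comparison. In tumor, Cyba was 0.03 after IR and −0.31 in control, a difference of 0.34. In blood, Ncf1 was −0.13 after IR and 0.23 in control, a difference of −0.37.

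For IR over control in cells labelled cKO, Cybb was 0.42 in tumor and −0.07 in blood, a difference of 0.49, and Ncf1 was 0.28 and −0.31, a difference of 0.59. For tumor over blood, Cyba was −0.36 in control cKO and 0.06 in control WT, a difference of −0.42. Without fibroblast-like cells several of these signs were no longer opposite. The cKO over WT ratios in tumor control became 0.04 for Cybb, −0.08 for Cyba and −0.06 for Ncf4, and that of Cyba in tumor IR became −0.03. The IR ratios in tumor cKO became −0.03 for Cybb and −0.17 for Ncf1, and Cyba in tumor over blood became 0.08 in control cKO and 0.28 in control WT. All but the blood comparison of Ncf1 use a tumor cKO group, and tumor control cKO was the group with the largest share of UMIs from fibroblast-like cells (30.7%). The part of these cells in the signs was not tested.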

How the results depend on the processing

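Of the 5 members, those higher after IR in tumor numbered 5 in each label, beside 35.1% (WT) and 39.0% (cKO) of all genes. The members higher numbered 3 in WT and 3 in cKO with barcodes called in more than 1 library removed. In cKO they numbered 3 with the class makeup held fixed, over classes with 76.3% of the cells, and 3 without fibroblast-like cells. For cKO over WT in tumor control 1 member was higher, beside 62.3% of all genes. The count was 0 with a 4-fold margin for both labels, 3 with shared barcodes removed, and 2 with the makeup fixed or without fibroblast-like cells. In tumor IR 3 members were higher, beside 58.0% of all genes. The count was 1 with TMM factors, 1 with the makeup fixed and 0 without fibroblast-like cells. For tumor over blood, 1 member was higher in control WT (0 with TMM, 2 by the mean over cells) and 1 in each label after IR (2 by the mean over cells). In control cKO it was 0 (1 with shared barcodes removed, by the mean over cells or without fibroblast-like cells). Of all genes, 54.7% were higher in control WT, 57.6% in control cKO, 45.9% in IR WT and 44.8% in IR cKO. By the mean over cells, Cybb in control cKO turned from −1.13 to 0.057. Without the neutrophil-like clusters led by Ngp and Ly6g, Cybb in these cells went from 1.46 to 0.088 (cKO over WT, blood control) and from −1.31 to 0.037 (IR over control, blood cKO). The cause of the Cybb differences was not tested. With at least 20 UMIs instead of 100, the share of all genes past 2-fold became 9.38% for IR in tumor WT, 3.38% and 3.37% in blood WT and cKO, and 7.53%, 3.36%, 4.33% and 2.16% for cKO over WT in tumor control, tumor IR, blood control and blood IR. A mitochondrial limit of 10% and a hashtag minimum of 50 moved none of the 60 ratios of single members beyond their intervals. The fixed makeup was not run for tumor over blood, since the shared classes held too few cells. No paired analysis was possible because, with 1 pool per group, none of these results comes from a test. A fit over the 8 pools with additive effects of tissue, treatment and label was not run. Counting intervals do not cover the spread between mice.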
